A study of Mus musculus with 7 samples.

Results

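The genes described here are 7 matrix metalloproteinases, Mmp2, Mmp3, Mmp9, Mmp12, Mmp13, Mmp14 and Mmp19, and 3 tissue inhibitors of metalloproteinases, Timp1, Timp2 and Timp3. They were picked by gene symbol, and all 10 had a row among the 22173 genes of the deposited expression table. RNA was sequenced from mouse spleens of 2 groups. In the sHA-X group (n = 4) spleens were given 4 injections of the biomaterial sHA-X, which the labels do not describe further, and hepatocytes, the main cells of the liver, were then injected. The PBS group (n = 3) had phosphate-buffered saline in place of the biomaterial, and hepatocytes likewise. Spleens of both groups were collected 30 days after the hepatocytes had been given. The sources used here give no strain, sex, age or source of the hepatocytes. Values are FPKM, fragments scaled to transcript length and library size, so that levels can be compared between genes. Libraries are numbered by the replicate number of their label.

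Matrix metalloproteinases are zinc-dependent enzymes that cut collagens, proteoglycans and other proteins outside the cell. They are made as inactive precursors, are activated when a propeptide is removed, and are blocked by tissue inhibitors that bind the active site. In the spleen, fibroblastic stroma, macrophages and neutrophils are known sources of different family members. RNA levels do not show how much enzyme was active.

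Reads, recovered from the steps in which each gene's FPKM values fall, numbered 29543963 to 37142218 in sHA-X libraries and 31809882 to 33322869 in PBS libraries. Spleen markers were present throughout: the 8 B cell genes summed to 1133 to 1309 FPKM in sHA-X and 1681 to 2010 FPKM in PBS (7 fell), and the 8 T cell genes to 207.5 to 270.7 FPKM in sHA-X and 259.6 to 351.5 FPKM in PBS (1 fell, a call lost in 5 of the 7 analyses that omitted a library). Some libraries stood apart. In PBS library 2, acinar pancreas genes summed to 811.3 FPKM, with 0.148 FPKM or less in every other library. In sHA-X library 2, skeletal muscle genes summed to 196.3 FPKM and adipocyte genes to 99.2 FPKM, with no more than 10.3 and 32.7 FPKM in the others. Hepatocyte genes summed to 869.3 FPKM in sHA-X library 3 and 889.0 FPKM in sHA-X library 4, and to no more than 29.1 FPKM in the other 5 libraries. Erythroid genes summed to 556.0 FPKM in PBS library 3, against 1873 and 2120 FPKM in PBS libraries 1 and 2, with 753.7 to 1343 FPKM in sHA-X libraries. The same PBS library had the lowest neutrophil sum, and without it 1263 genes were called higher.

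Of the 10 genes, 7 rose in sHA-X spleens and none fell, where 9.30% of all tested genes were called higher and 5.03% lower. A change in the number of cells of a type cannot be told apart here from a change in RNA per cell, since whole tissue was sequenced. The rises ranged from the stromelysin gene Mmp3, at 14.9 times the PBS mean, through Timp1 (4.001 times), Mmp19 (3.19 times) and Mmp2 (2.76 times), to Mmp9 (1.65 times), Mmp14 (1.49 times) and Timp2 (1.42 times). Timp3 and Mmp12 did not pass, and Mmp13 was too low to be tested with the others. Genes were called at an adjusted p under 0.05 by limma on log2(FPKM + 1), fitted over the 11920 genes with a mean of at least 1 FPKM. Log2 changes are on that scale, where the added 1 makes them smaller than the ratio of means for low genes. In each of the 7 genes that rose, every sHA-X library lay above every PBS library, which was so for 17.2% of all tested genes. The median log2 change was 0.68 over the 9 tested genes and 0.03 over all tested genes. The 7 rises were all called in 6 of 17 alternative analyses. With any 1 library left out, 5 or 6 of the 7 were called, and Mmp2, Mmp3, Mmp9, Mmp14 and Mmp19 were called each time. Without both second libraries the log2 changes were 3.45 for Mmp3, 1.30 for Mmp2, 0.76 for Mmp9, 0.59 for Mmp14, 1.39 for Mmp19 and 1.87 for Timp1, each still called, and 0.35 for Timp2, which was not called (adjusted p = 0.090 by limma). Without sHA-X libraries 3 and 4, which leaves 2 sHA-X and 3 PBS libraries, they were 3.19 for Mmp3, 1.39 for Mmp2, 0.73 for Mmp9, 0.50 for Mmp14, 1.36 for Mmp19, 1.63 for Timp1 and 0.58 for Timp2. There Mmp19 was called (adjusted p = 0.0045 by limma), and the other 6 were not (adjusted p between 0.053 and 0.21).

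**Figure D1:**
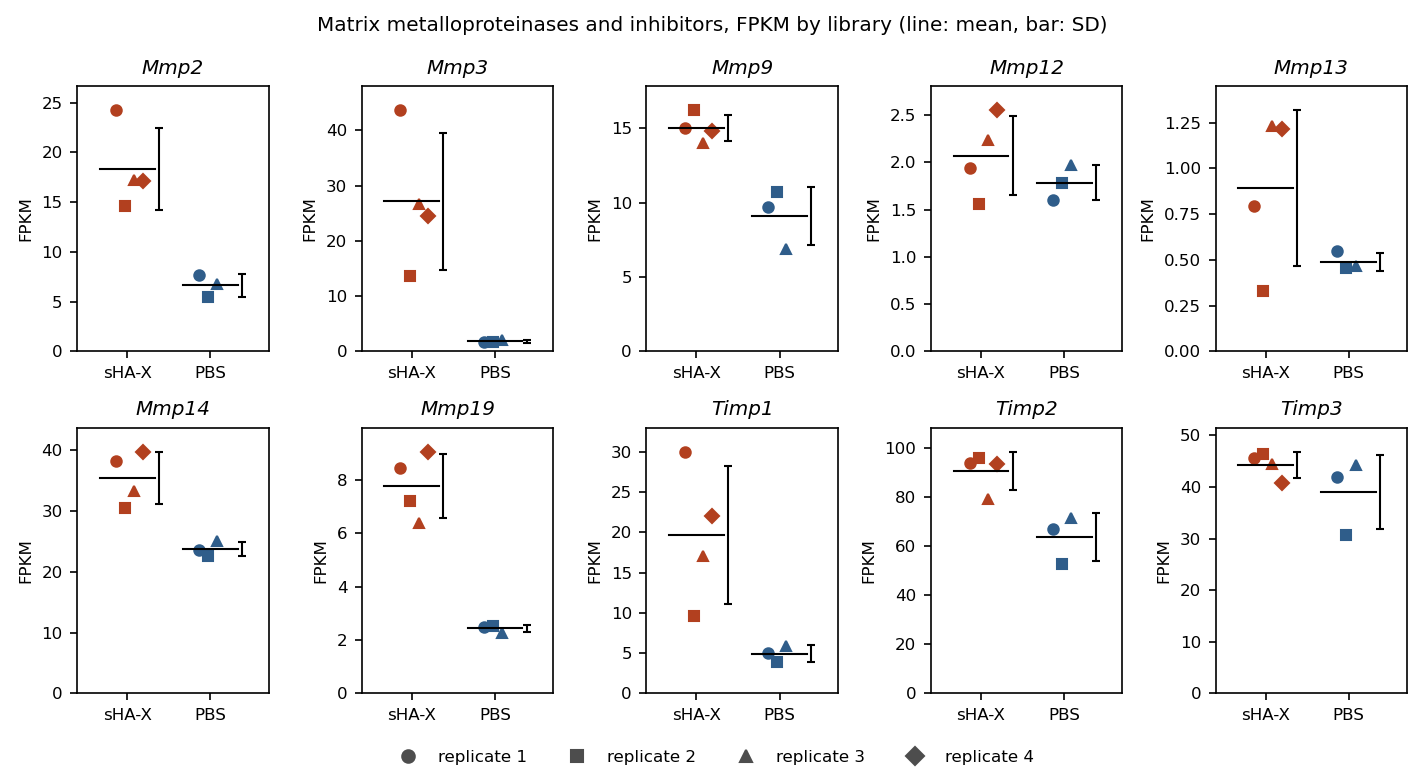
FPKM of each gene (vertical axes, linear from 0) in the 4 sHA-X libraries (red) and the 3 PBS libraries (blue), with marker shapes for replicate numbers, a line for the mean and a bar for the SD. The groups are apart for 7 genes and overlap for Mmp12, Mmp13 and Timp3.

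Promoter windows of 300 bases (250 before and 50 after the transcription start, RefSeq, GRCm38.p6, the assembly also called mm10) are shown for 4 genes that the results turn on: Mmp3, which rose most, its chromosome 9 neighbours Mmp13, which is low, and Mmp27, a further family member that rose, and Timp1, the inhibitor that rose most. Capitals mark TGANTCA, the binding sequence of AP-1 (Fos and Jun family proteins), its variant TGAGTAA, and the TATA box letters TATAAA, each searched on both strands, where the 2 AP-1 patterns and the TATA letters did not overlap.
Mmp3, chr9:7445572-7445871, plus strand: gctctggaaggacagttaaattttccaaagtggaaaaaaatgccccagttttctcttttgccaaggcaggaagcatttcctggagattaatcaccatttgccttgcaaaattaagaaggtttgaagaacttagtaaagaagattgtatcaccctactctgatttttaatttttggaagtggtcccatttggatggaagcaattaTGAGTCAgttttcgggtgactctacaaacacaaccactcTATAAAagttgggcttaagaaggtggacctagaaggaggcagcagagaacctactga
Mmp13, chr9:7272264-7272563, plus strand: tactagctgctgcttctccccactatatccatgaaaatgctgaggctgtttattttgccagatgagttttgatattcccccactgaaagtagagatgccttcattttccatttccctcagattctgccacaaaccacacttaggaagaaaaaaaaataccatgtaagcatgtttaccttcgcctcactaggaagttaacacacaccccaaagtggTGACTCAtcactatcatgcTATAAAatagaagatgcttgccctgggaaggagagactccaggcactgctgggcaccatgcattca
Mmp27, chr9:7571146-7571445, plus strand: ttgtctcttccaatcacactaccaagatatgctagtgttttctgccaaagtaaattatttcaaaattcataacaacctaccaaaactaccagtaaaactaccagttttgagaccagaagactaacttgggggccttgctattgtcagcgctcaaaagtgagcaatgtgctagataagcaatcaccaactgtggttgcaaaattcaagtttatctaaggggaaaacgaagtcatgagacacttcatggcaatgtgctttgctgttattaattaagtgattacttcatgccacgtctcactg
Timp1, chrX:20869916-20870215, plus strand: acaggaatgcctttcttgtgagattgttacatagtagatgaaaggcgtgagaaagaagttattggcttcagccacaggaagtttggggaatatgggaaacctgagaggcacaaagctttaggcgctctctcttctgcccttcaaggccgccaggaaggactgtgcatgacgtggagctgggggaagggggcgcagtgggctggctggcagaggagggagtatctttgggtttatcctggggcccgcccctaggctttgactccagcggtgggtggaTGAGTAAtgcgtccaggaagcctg

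TGANTCA began 46 bases before the start in Mmp3 and 35 bases before it in Mmp13, upstream of TATAAA in both. It was also found 44 bases before the second of the 2 starts listed for Mmp12. Over all 32851 windows, 7.81% held TGANTCA and 13.6% held TATAAA. The window of Timp1 held no TGANTCA. It held TGAGTAA from base 27 after the start, a variant looked for after its sequence had been read and present in 2.68% of all windows. Windows were found for 7 of the 10 genes, and those of Mmp14, Timp1, Timp2 and Timp3 held neither TGANTCA nor TATAAA but did hold the GC box letters GGGCGG (35.7% of all windows). The AP-1 letters were thus present both in a gene that rose (Mmp3) and in genes that did not pass or were not tested with the rest (Mmp12 and Mmp13), and these matches are descriptions of sequence only.

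Mmp3 encodes stromelysin, which degrades proteoglycans and basement membrane proteins and can activate other metalloproteinase precursors (NCBI gene 17392, chromosome 9, 7445822 to 7455975). It was 43.7, 13.7, 26.7 and 24.6 FPKM in sHA-X libraries 1 to 4, against 1.73, 1.65 and 2.09 FPKM in PBS libraries 1 to 3. The lowest sHA-X library was thus far above all PBS libraries, while the sHA-X libraries differed widely among themselves. Means were 27.2 ± 12.4 FPKM in sHA-X and 1.82 ± 0.24 FPKM in PBS (SD, n = 4 and 3), which limma put at a log2 change of 3.21 ± 0.36 (SE) with adjusted p = 0.0041. This was the 10th highest log2 change of all tested genes, called or not. Genes above it included the hepatocyte genes Alb, Apoa1 and Ahsg, which were not called. Between 732 and 2511 reads per sHA-X library and between 95 and 126 reads per PBS library stood behind these values. Mmp3 made up 16.3% to 33% of the summed FPKM of the 7 proteinases in sHA-X libraries and 3.64% to 4.59% in PBS libraries. In PBS it was among the lowest of the 10 genes, with a range that overlapped that of Mmp12. In sHA-X its range overlapped those of Mmp14 above it and Timp1 below it.

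The gelatinases Mmp2 and Mmp9 cut denatured collagen and the collagen of basement membranes. Mmp2, known mainly from fibroblasts (chromosome 8, 92827290 to 92853421), was 24.2, 14.6, 17.3 and 17.2 FPKM in sHA-X libraries 1 to 4 and 7.69, 5.45 and 6.79 FPKM in PBS libraries 1 to 3. Every sHA-X library held more than any PBS library. Its means were 18.3 ± 4.14 FPKM in sHA-X and 6.64 ± 1.13 FPKM in PBS, which limma put at a log2 change of 1.33 ± 0.17 (SE) with adjusted p = 0.0036. Mmp9, known mainly from neutrophils and macrophages (chromosome 2, 164940326 to 164955850), was 15.0, 16.2, 14.0 and 14.8 FPKM in sHA-X and 9.74, 10.7 and 6.91 FPKM in PBS. The groups did not overlap, and here the PBS libraries were the more variable ones, with a coefficient of variation of 6.02% in sHA-X and 21.5% in PBS. The log2 change of Mmp9 was 0.68 ± 0.13 (SE, limma, adjusted p = 0.011).

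Mmp14 is a membrane-anchored enzyme that cuts collagen at the cell surface and activates the Mmp2 precursor (chromosome 14, 54431598 to 54442456). It was the most abundant of the 7 proteinases by mean in both groups, at 38.2, 30.45, 33.4 and 39.7 FPKM in sHA-X libraries 1 to 4 and 23.6, 22.7 and 25.1 FPKM in PBS libraries 1 to 3. The groups were apart by what limma put at a log2 change of 0.55 ± 0.09 (SE) with adjusted p = 0.0077. Its share of the summed proteinase FPKM was 28.9% to 36.4% in sHA-X and 49.8% to 55.0% in PBS.

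Mmp19, an enzyme with basement membrane substrates (chromosome 10, 128790910 to 128800827), had the smallest p of the 10 genes. It was 8.45, 7.19, 6.385 and 9.03 FPKM in sHA-X and 2.50, 2.53 and 2.27 FPKM in PBS. Both groups were tight, and the lowest sHA-X library stood well above the highest PBS library. Its log2 change was 1.34 ± 0.11 (SE, limma, adjusted p = 0.00042), and it ranked 35th by p among all tested genes. An antisense neighbour, Tmem198b, shares 22.3% of the annotated exon bases of Mmp19 and reached 2.55 FPKM at most. The sources used here do not say whether reads were counted by strand, so the 2 genes may share reads.

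The macrophage elastase gene Mmp12 (chromosome 9, 7344397 to 7360461) was 1.94, 1.56, 2.24 and 2.55 FPKM in sHA-X libraries 1 to 4 and 1.599, 1.78 and 1.97 FPKM in PBS libraries 1 to 3. The groups overlapped, and the gene did not pass (limma, log2 change 0.13 ± 0.12 SE, adjusted p = 0.51). The collagenase gene Mmp13 (chromosome 9, 7272514 to 7283333) was the lowest of the 10 in both groups, with 26 to 121 reads in sHA-X libraries and 39 to 47 reads in PBS libraries. It was 0.796, 0.328, 1.23 and 1.21 FPKM in sHA-X and 0.546, 0.456 and 0.469 FPKM in PBS. Of the sHA-X libraries, 3 were above all PBS libraries and library 2 was below them all. The difference in mean FPKM, 0.401, gave p = 0.229 (exact permutation test, two-sided, 35 splits, smallest possible p 0.0286).

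Timp1, a secreted inhibitor that is known to be induced by inflammatory signals (chromosome X, 20870166 to 20874737), rose most of the 3 inhibitors. It was 29.98, 9.66, 17.1 and 22.0 FPKM in sHA-X libraries 1 to 4, against 4.98, 3.85 and 5.94 FPKM in PBS libraries 1 to 3. All sHA-X libraries were higher, but they spread widely. Means were 19.7 ± 8.53 FPKM in sHA-X and 4.92 ± 1.045 FPKM in PBS, which limma put at a log2 change of 1.72 ± 0.37 (SE) with adjusted p = 0.034. The call was lost in 6 of the 7 analyses that left out 1 library, all but the one without sHA-X library 2 (adjusted p up to 0.11), and its log2 change stayed between 1.49 and 2.002. Timp1 lies inside the gene Syn1 on the other strand and shares no annotated exon base with it. Syn1 did not exceed 0.673 FPKM.

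Timp2, which blocks Mmp2 and also takes part in its activation at the cell surface (chromosome 11, 118301061 to 118355411), was the most abundant of the 10 genes in both groups. It was 94.1, 95.9, 79.25 and 93.6 FPKM in sHA-X and 67.0, 53.0 and 71.7 FPKM in PBS. The groups were apart, with means of 90.7 ± 7.715 FPKM in sHA-X and 63.9 ± 9.75 FPKM in PBS and a log2 change of 0.51 ± 0.11 (SE, limma) with adjusted p = 0.021. The call was lost when sHA-X library 1, 2 or 4 or PBS library 1 was left out, with adjusted p reaching 0.060. Timp3, an inhibitor that is bound to the matrix and also acts on ADAM and ADAMTS enzymes (chromosome 10, 86300412 to 86349505), was 45.5, 46.4, 44.4 and 40.8 FPKM in sHA-X and 41.9, 30.8 and 44.3 FPKM in PBS. Only PBS library 2 was low, the other PBS libraries lay within the sHA-X range, and the gene did not pass (limma, log2 change 0.19 ± 0.12 SE, adjusted p = 0.32). Syn3 shares 21.3% of the annotated exon bases of Timp3 and did not exceed 0.00913 FPKM.

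The order of levels kept Timp2, Timp3 and Mmp14 on top in both groups, with no overlap between Timp2 and Timp3 or between Timp3 and Mmp14 within a group. Below them the sHA-X order by mean was Mmp3, Timp1, Mmp2, Mmp9, Mmp19, Mmp12 and Mmp13, where the ranges of neighbours overlapped from Mmp14 down to Mmp9. The PBS order was Mmp9, Mmp2, Timp1, Mmp19, Mmp3, Mmp12 and Mmp13, where Mmp9 overlapped Mmp2, Mmp2 overlapped Timp1, and Mmp3 overlapped Mmp12.

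Proteinase levels relative to inhibitor levels were described without a test. The FPKM ratio of Mmp3 to Timp1 was 1.46, 1.42, 1.56 and 1.11 in sHA-X libraries 1 to 4, against 0.346, 0.429 and 0.352 in PBS libraries 1 to 3. The ratio was therefore more even over the sHA-X libraries than either gene was. The ratio of Mmp2 to Timp2 was 0.152 to 0.258 in sHA-X and 0.0947 to 0.115 in PBS, without overlap. The ratio of Mmp14 to Timp2 overlapped, at 0.317 to 0.424 in sHA-X and 0.350 to 0.428 in PBS. The ratio of Mmp9 to Timp1 also overlapped, at 0.5 to 1.68 in sHA-X and 1.16 to 2.78 in PBS. The 3 inhibitors together gave 56.2% to 64.4% of the summed FPKM of the 10 genes in sHA-X and 66.0% to 72.8% in PBS.

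**Figure D2:**
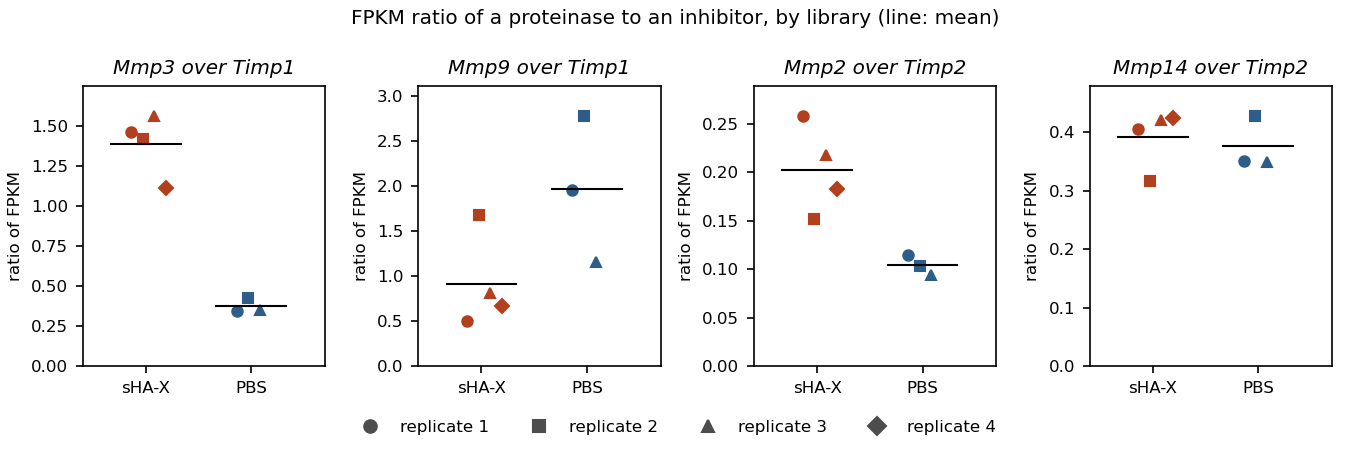
FPKM ratio of a proteinase to an inhibitor (vertical axes, linear from 0) in each sHA-X library (red) and PBS library (blue), with lines for group means. Mmp3 over Timp1 and Mmp2 over Timp2 are higher in every sHA-X library, and the other ratios overlap.

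The sHA-X libraries differed in a shared way for some of these genes. Mmp2, Mmp3 and Timp1 were each highest in library 1 and lowest in library 2. Ctsk, described further on, had the same extremes. The genes with the most similar course over the 7 libraries, by root mean square difference of centred log2(FPKM + 1), are named for each tested gene. For Mmp3 they were Spp1 (0.251), Lum (0.465) and Ccl7 (0.470). For Timp1 they were Tnc (0.248), Ctsk (0.258) and Col1a1 (0.273), and for Mmp2 they were Il1b (0.124), Dpep1 (0.128) and Col3a1 (0.128). For Mmp9, Srpx2 and Car13 (both 0.104) were followed by Mmp8 (0.129), the neutrophil collagenase gene. For Mmp19 they were Lilrb4a (0.115), Prg4 (0.129) and Ccn5 (0.145). Mmp14 was closest to Loxl2 (0.0562), Fhl2 (0.0572) and Sema3g (0.0596), and Timp2 to Ptgfrn (0.0359), Man2a1 (0.0382) and Slc16a9 (0.0478). Timp3 was closest to Slc37a2 (0.0422), C2 (0.0461) and Tnfsf12 (0.0546), and Mmp12 to Slc25a25 (0.0354), Acat1 (0.0527) and Qsox1 (0.0589). These differences are not comparable between the 9 genes, whose own ranges differ (4.08 for Mmp3, 0.47 for Mmp12, log2 scale).

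Of the 17 other metalloproteinase and inhibitor genes searched, 9 were tested. Of these 2 rose, 7 did not pass and none fell, at a median log2 change of 0.25, where 9.30% of all tested genes were called higher. Mmp27 was 1.85, 2.85, 1.98 and 3.47 FPKM in sHA-X libraries 1 to 4 and 0.350, 0.470 and 0.294 FPKM in PBS libraries 1 to 3. The groups were apart on 126 to 276 reads in sHA-X and 21 to 32 reads in PBS (limma, log2 change 1.34 ± 0.16 SE, adjusted p = 0.0017). Mmp25, a neutrophil enzyme anchored to the membrane, was 2.85 ± 0.80 FPKM in sHA-X and 1.53 ± 0.26 FPKM in PBS (adjusted p = 0.047 by limma), a call lost in 6 of the 7 analyses with 1 library left out (all but the one without sHA-X library 3). Mmp8 was 12.6, 17.95, 12.5 and 12.8 FPKM in sHA-X and 9.52, 10.8 and 5.91 FPKM in PBS, and did not pass (adjusted p = 0.093) although the groups were apart. Mmp23, Mmp28 and Mmp11 did not pass either (adjusted p = 0.93, 0.34 and 0.22). The 8 untested genes, Timp4 among them, reached 0.286 FPKM at most.

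**Figure D3:**
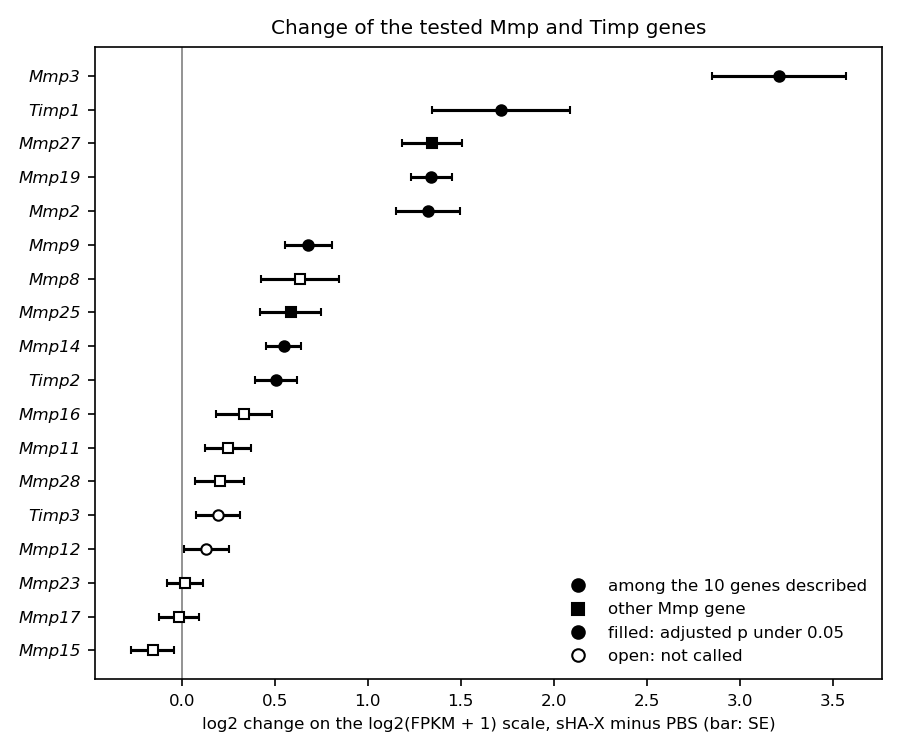
Log2 change with SE (horizontal axis, sHA-X minus PBS on the log2(FPKM + 1) scale) for the 18 tested Mmp and Timp genes; filled markers have an adjusted p under 0.05. Mmp3 stands apart at 3.21, and the called changes are all above 0.

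Mmp3, Mmp12 and Mmp13 belong to a run of 10 metalloproteinase genes on chromosome 9 (7272514 to 7699585, 427.1 kb). Neighbouring genes stood at very different levels. Mmp1a and Mmp1b, which flank Mmp3, were listed at 0 in all 7 libraries, and Mmp10, which follows Mmp1a, was at 0.0194 FPKM at most. Of the 4 genes of the run that were tested, Mmp3 and Mmp27 rose and Mmp8 and Mmp12 did not pass. Mmp7 and Mmp20 at the far end were at most 0.216 and 0.0327 FPKM.

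**Figure D4:**
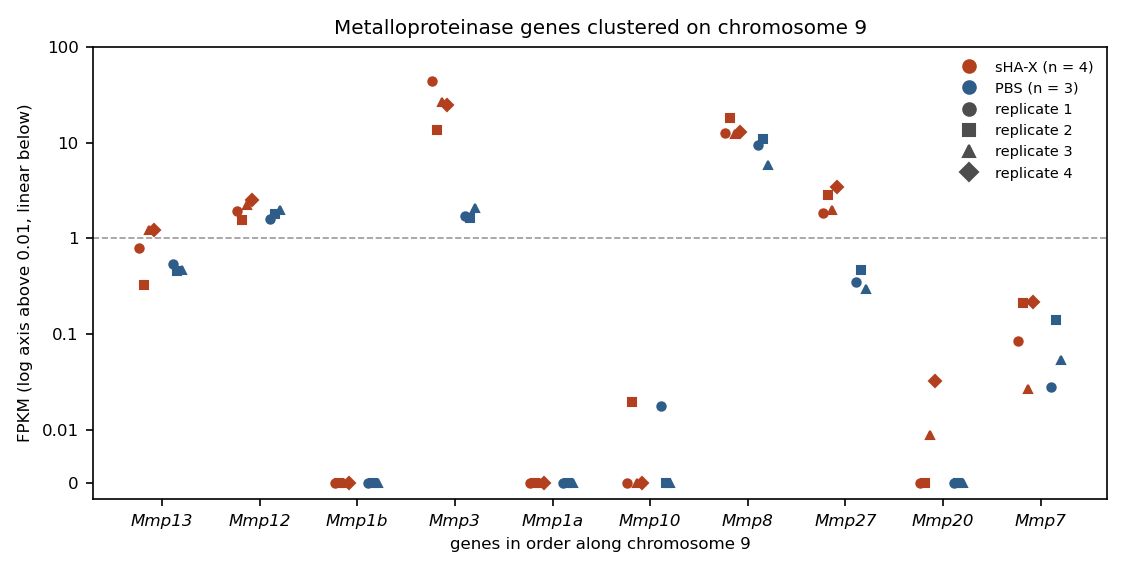
FPKM in each sHA-X library (red) and PBS library (blue) of the 10 metalloproteinase genes on chromosome 9, in chromosomal order; the vertical axis is logarithmic above 0.01 and linear below, and the dashed line marks 1 FPKM. Mmp3 and Mmp27 are higher in every sHA-X library, and Mmp1a and Mmp1b, on either side of Mmp3, are at 0.

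Many genes that activate, inhibit or clear metalloproteinases were higher. Of 24 such genes, 22 were tested. Of these 12 rose, 10 did not pass and none fell, at a median log2 change of 0.68, where 9.30% of all tested genes were called higher. With the replicate number as a block 4 were called higher, and with 1 library left out 7 to 12. Without PBS library 2, 7 were called higher and 1, Reck, lower, and Reck, a membrane-anchored inhibitor of metalloproteinases, was also called lower with median-ratio or TMM scaling. It was 3.59 ± 0.14 FPKM in sHA-X and 4.46 ± 0.47 FPKM in PBS (adjusted p = 0.074 by limma). Lrp1, the receptor through which proteinase and inhibitor complexes are taken up, was 30.8 ± 2.197 FPKM in sHA-X and 15.2 ± 2.10 FPKM in PBS (limma, log2 change 0.98 ± 0.10 SE, adjusted p = 0.00094). The tissue plasminogen activator gene Plat was 3.15 ± 0.65 FPKM in sHA-X and 0.93 ± 0.24 FPKM in PBS (adjusted p = 0.0027), and the collagen uptake receptor gene Mrc2 was 3.06 ± 0.39 FPKM in sHA-X and 1.68 ± 0.11 FPKM in PBS (adjusted p = 0.0051). Cd63, a Timp1-binding membrane protein gene, also rose, at 96.6 ± 9.76 FPKM in sHA-X and 57.5 ± 6.23 FPKM in PBS. The mast cell protease genes Mcpt4 and Tpsb2 also rose, with 3.40 ± 0.69 and 2.27 ± 0.50 FPKM in sHA-X against 0.518 ± 0.365 and 0.1075 ± 0.019 FPKM in PBS. The metalloproteinase inducer Bsg, Lcn2, and the neutrophil proteases Prtn3 and Elane did not pass (adjusted p = 0.68, 0.14, 0.064 and 0.27). A further neutrophil protease, Ctsg, was called higher, at 23.8 ± 3.39 FPKM in sHA-X and 10.7 ± 3.38 FPKM in PBS (adjusted p = 0.022 by limma), a call lost in 4 of the 7 analyses that omitted a library. Reck and Ctsg are outside the naming rule and were chosen after their values were seen.

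All 6 lysosomal proteases examined, Ctsb, Ctsd, Ctsk, Ctsl, Ctss and Ctsz, rose, with a median log2 change of 0.59, where 9.30% of all tested genes were called higher. Ctsk, a cathepsin that degrades collagen, was 19.7, 10.7, 16.0 and 14.65 FPKM in sHA-X and 4.85, 3.85 and 5.25 FPKM in PBS (limma, log2 change 1.505 ± 0.19 SE, adjusted p = 0.0034). Ctsd was 623.6 ± 17.4 FPKM in sHA-X and 358.6 ± 12.5 FPKM in PBS, and Ctsb was 1043 ± 17.6 FPKM in sHA-X and 632.3 ± 34.4 FPKM in PBS. The call of Ctss was lost without PBS library 1, and that of Ctsz in 5 of the 7 analyses that omitted a library.

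Most tested ADAM and ADAMTS genes, relatives among which Timp3 inhibits some, did not pass. Of 25, 15 were tested, 2 were called higher, 3 lower and 10 neither, with a median log2 change of -0.02, against 9.30% higher and 5.03% lower over all tested genes. The count of lower genes was 0 without sHA-X library 1, 3 or 4 or without PBS library 1. Adamts2, which trims procollagen, was 5.19 ± 0.81 FPKM in sHA-X and 2.60 ± 0.17 FPKM in PBS (adjusted p = 0.0032 by limma), and Adam9 was 20.2 ± 1.80 FPKM in sHA-X and 14.3 ± 0.89 FPKM in PBS (adjusted p = 0.0076). Adam19, Adamts6 and Adamts14 fell, to 13.1 ± 0.95, 2.12 ± 0.11 and 1.34 ± 0.19 FPKM in sHA-X, against 16.9 ± 1.48, 3.05 ± 0.51 and 2.002 ± 0.25 FPKM in PBS, and each call was lost in 4 to 6 of the 7 analyses that omitted a library, where the largest adjusted p were 0.095, 0.16 and 0.13. Adam10, Adamdec1, Adam17 and Adam15 did not pass (adjusted p = 0.55, 0.065, 0.91 and 0.051).

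Of 22 cytokines and transcription factors known to act on metalloproteinase genes, 17 were tested, 3 rose, 2 fell and 12 did not pass. Their median log2 change was 0.06, and over all tested genes 9.30% were called higher and 5.03% lower. Il1b was 43.8, 26.1, 33.2 and 26.1 FPKM in sHA-X and 12.3, 11.2 and 12.6 FPKM in PBS (adjusted p = 0.0046 by limma). The oncostatin M receptor gene Osmr was 9.95 ± 0.66 FPKM in sHA-X and 5.88 ± 0.61 FPKM in PBS, and the AP-1 subunit gene Fosl2 was 6.04 ± 0.53 FPKM in sHA-X and 3.68 ± 0.50 FPKM in PBS. The transcription factor gene Ets1 fell to 109.0 ± 2.89 FPKM in sHA-X, against 152.2 ± 17.1 FPKM in PBS, and Jund, a further AP-1 subunit, to 61.6 ± 3.50 FPKM in sHA-X, against 76.05 ± 0.89 FPKM in PBS (adjusted p = 0.013, and 0.056 without PBS library 1). Tgfb1, Nfkb1, Junb and Rela did not pass (adjusted p = 0.45, 0.24, 0.057 and 0.80).

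Markers of cells that are known to make these enzymes were called higher in some lists more than in others. Over all tested genes 9.30% were called higher and 5.03% lower. The part of these markers in the results above was not tested. Of 12 fibroblast genes, 11 were tested, 9 rose and none fell, but 4 were called higher without PBS library 2 and 5 without PBS library 1. Their summed FPKM was 859.5, 640.2, 630.3 and 596.8 in sHA-X libraries 1 to 4 and 280.7 to 368.2 in PBS. This sum was highest in library 1, as were Mmp2, Mmp3 and Timp1, and lowest in library 4, whereas these 3 genes were lowest in library 2. In the fibroblast list, Col1a1, Col1a2 and Col3a1 were also highest in library 1 and lowest in library 2, and no other gene had both extremes. Dcn, Lum and Gsn were lowest in library 4. Of 14 macrophage genes, 11 rose and none fell, with sums of 2496 to 2725 FPKM in sHA-X and 1354 to 1732 FPKM in PBS. Among 7 monocyte genes 6 were tested, of which 2 rose and 4 did not pass. Their sums were 360.3 to 381.3 FPKM in sHA-X and 259.7 to 315.7 FPKM in PBS. The call of Ly6c2 was lost in 6 of the 7 analyses that omitted a library. With median-ratio or TMM scaling 1 monocyte gene was called higher and 1, Ms4a4c, lower. Of 12 neutrophil genes, which include Elane of the activation list, 3 rose and 9 did not pass, with sums of 3394 to 5340 FPKM in sHA-X and 1959 to 3323 FPKM in PBS. The sum was highest in sHA-X library 2, where Mmp8 and Mmp9 were highest too, and lowest in PBS library 3, where both were lowest. Most of the sum in sHA-X library 2 came from S100a8 (2183 FPKM) and S100a9 (2066 FPKM). The 3 neutrophil genes that rose, Csf3r, Cxcr2 and Il1r2, were highest in sHA-X library 1, and Cxcr2 and Il1r2 were lowest in sHA-X library 2. In PBS library 3 Il1r2 was the lowest of its group, and Csf3r and Cxcr2 were not. Of 8 mast cell genes, which share Mcpt4, Tpsb2 and Cma1 with the activation list, 6 rose (33.4 to 43.2 FPKM in sHA-X and 19.2 to 23.3 FPKM in PBS). Without PBS library 2, 4 mast cell genes were called higher, and with the replicate number as a block 2 were. None of these lists had a gene at 0 in every library. The 8 endothelial and 6 smooth muscle genes had no calls, with endothelial sums of 138.0 to 155.8 FPKM in sHA-X and 128.8 to 166.1 FPKM in PBS, and smooth muscle sums of 176.5 to 196.3 FPKM in sHA-X and 149.8 to 177.2 FPKM in PBS.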

How the data were processed

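The deposited table gives 1 value per gene and library. Its header names no unit. The values were read as FPKM that the authors computed. After each library was multiplied by its relative depth, estimated from the data, the values of a gene are whole multiples of a step. Such steps show scaled read counts and do not by themselves name the unit. Per the submitters' processing notes, fastp, HISAT2, HTSeq, DESeq2, R 3.2.0 and mm10 were used, with no roles given. Whole reads (within 0.005 of a read) were read back from these steps for each of the 16889 genes detected in 2 or more libraries. They served for depth, for the read numbers given for single genes and for voom. A divisor common to all of a gene's reads cannot be seen in this way, so the reads of such a gene would come out too low.

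log2(FPKM + 1) was tested with limma 3.58.1 (trend, robust variance, group as the only term) in R 4.3.3 over the 11920 genes with a mean of at least 1 FPKM. P-values were two-sided and adjusted by the Benjamini-Hochberg method. Log2 changes on this scale understate those of low genes. The code was tested on simulated data. The labels do not say that libraries came from separate animals, so p-values measure the spread between libraries, which may be technical.

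Members, lists and tests were chosen with earlier results of these data known. All 10 genes were named, with the 3 genes closest to each tested one, and of each further list up to 6 called genes by p and up to 4 others by level. Genes were matched to RefSeq (GRCm38.p6) by NCBI identifier, and exon overlaps taken from GENCODE M21. Alternatives were another pseudocount, filters, scalings, variance settings, the replicate number as a term, libraries left out, and limma voom on recovered reads, the last chosen after seeing the data. One gene of the activation, inhibition and clearance list is counted there but not reported here by name.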

Additional observations from a re-analysis of the deposited data

Results flagged for a closer look

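The 10 genes, the other Mmp and Timp genes and the genes named by rule from the further lists were examined where their mean was at least 1 FPKM (or they were among the 10), and the rest of the further lists was not. Among these 53 genes, the 4 sHA-X libraries were searched for 1 library far from the other 3 (its gap to the nearest one divided by the whole range, in brackets, above Dixon's 95% critical value), and 5 genes were found, where chance flags about 1 in 20. Timp2 was lowest in sHA-X replicate 3, at 79.25 FPKM against 93.6 to 95.9 FPKM in the others (0.862). Mmp8 was highest in sHA-X replicate 2, at 17.95 FPKM against 12.5 to 12.8 FPKM (0.936), the library with the highest neutrophil marker sum, whose part was not tested. The neutrophil genes that rose, Csf3r, Cxcr2 and Il1r2, were highest in sHA-X replicate 1. Adam10 was lowest in sHA-X replicate 2, at 52.3 FPKM against 57.5 to 58.1 FPKM (0.900). Adam17 was lowest in sHA-X replicate 3, at 29.0 FPKM against 31.8 to 31.9 FPKM (0.978). Ctss was highest in sHA-X replicate 4, at 598 FPKM against 543 to 549 FPKM (0.887).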

How the results depend on the processing

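The 7 calls among the 10 genes were the same with another pseudocount, with other filters, with median-ratio or TMM scaling and without robust variance, which are 6 of the 8 alternatives that keep all 7 libraries. With limma voom on recovered reads Timp1 was not called (log2 change 1.92, adjusted p = 0.064). With the replicate number as a block, 3 of the 10 genes were called (Mmp2, Mmp9 and Mmp19), with 276 genes higher and 72 lower over all genes and 12 higher and 0 lower in the further lists. The labels link libraries of the 2 groups by number only and do not say whether a number stands for a batch. Deviations from the group means correlated at 0.15, -0.214 and -0.286 between same-numbered libraries. By the same measure, sHA-X libraries 2 and 3 correlated best with PBS libraries of other numbers. These correlations cannot decide whether same-numbered libraries were handled together, since single libraries also stood apart in hepatocyte, erythroid, pancreas and muscle genes. Without both second libraries 492 genes were higher and 330 lower, with 16 higher in the further lists. Without sHA-X replicates 3 and 4, 384 were higher and 116 lower, 1 of the 10 genes was called, and the further lists had 15 higher and 0 lower.

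With 1 library left out, 5 to 6 of the 10 genes, 488 to 1263 higher and 228 to 637 lower genes, and 18 to 26 higher and 1 to 6 lower genes of the further lists were called, against 1108 and 600, and 25 and 5, with all libraries. The difference of Mmp13 stayed between 0.288 and 0.589 FPKM. With no filter the further lists had 3 lower genes. Median-ratio scaling gave 1001 higher and 843 lower genes (54.3% of calls higher, against 64.9%), and the median of all genes moved by under 0.1 in every scaling. Signs turned only for genes that were not called. Without sHA-X replicates 3 and 4 the log2 change was -0.0196 for Mmp12 and 0.0169 for Adam17. Without both second libraries it was -0.0759 for Mmp23 and 0.0303 for Adam10. With median-ratio scaling it was -0.011 for Mmp23 and -0.000472 for Rela. With 1 library left out it ran from -0.0745 to 0.139 for Mmp23, -0.066 to 0.0389 for Adam17, -0.0706 to 0.246 for Bsg and -0.00571 to 0.0785 for Rela. The cause of these changes was not tested. edgeR and DESeq2 were not run. The deposited values are not counts, and limma voom was the only count method run on the recovered reads. Depth limits low genes, with as few as 3 reads in a library for Tpsb2, 6 for Mcpt4, 21 for Mmp27 and 26 for Mmp13.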
